A study of Drosophila melanogaster with 2 samples.

Results

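The nuclear respiratory chain genes of Drosophila melanogaster were examined for Stat92E-GFP occupancy at their promoters. The genes were taken from the dm6 annotation by symbol, as every nuclear protein-coding gene whose symbol starts with ND-, Sdh, UQCR-, COX and a number, or ATPsyn. This gave 88 genes of 13945 protein-coding genes on the 6 chromosome arms used (2L, 2R, 3L, 3R, 4 and X). Of the 88, 63 are subunits here called core, 24 carry a symbol ending in L, or in L and a number, and are here called paralogs (ND-MNLL, a complex I subunit whose symbol also ends in L, is counted as core), and 1, Sdhaf3, is an assembly factor. Apart from ND-MNLL the split follows the symbols, and some chain subunits with other symbols, such as blw, levy and RFeSP, fall outside the rule and are described apart.

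The series holds 2 biological replicates of 1 group, labelled replicate 1 and replicate 3. Each is chromatin of whole embryos of both sexes, 0 to 12 h old, from the transgenic line Stat92E-GFP, which stably carries Stat92E fused at its C-terminus to eGFP. Chromatin was sonicated to 200 to 800 bp. The protocol text names an anti-GFP antibody, while the antibody label names Stat92E. No untagged, untreated or input sample was analysed here. Because whole embryos were used, occupancy in few cells and weak occupancy in many cells cannot be told apart.

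Stat92E is the transcription factor of the fly JAK/STAT pathway. On activation it moves to the nucleus and binds palindromic sites in which TTC faces GAA. The respiratory chain sits in the inner mitochondrial membrane: complexes I and II pass electrons from NADH and succinate to ubiquinone, complexes III and IV pass them on through cytochrome c to oxygen, and complex V, the ATP synthase, uses the resulting proton gradient to make ATP. Most subunits are encoded in the nucleus and a few in the mitochondrial genome. Many fly subunits also have paralogs, and a number of those are known for expression in the testis.

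A promoter summit is here a deposited peak summit within 1 kb of a transcription start site (TSS) of the gene. Peaks were ranked within each list by the authors' deposited signal, a score with no stated unit, so that rank 1 is the highest signal. The IDR-thresholded list, made by the authors with the irreproducible discovery rate, held 3603 peaks, which were identical to the 3603 strongest of the pooled list. The pooled list and both replicate lists held 30000 peaks each, so they reach down to weak peaks. Deposited −log10 q-values ranged from 0.396 to 3.62 in the pooled list, and 13615 of its peaks had a q-value at or under 0.05. With no read counts in the lists, the depth behind a peak is unknown.

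In the pooled and replicate lists most core subunit genes had a promoter summit and most paralogs had none, while in the IDR-thresholded list most genes of both kinds had none. In the IDR-thresholded list, 22 of the 88 genes (25%, exact 95% interval 16.4 to 35.4%) had one, against 21.3% of all protein-coding genes. The split by symbol gave 20 of 63 core genes (31.7%, interval 20.6 to 44.7%) and 2 of 24 paralogs (8.33%, interval 1.03 to 27.0%). The share over all 88 genes was thus close to the background, and the interval of the core genes also included it. Intervals cover counting error only, and genes that share a promoter are not independent.

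In the pooled list 69 of the 88 genes (78.4%) had a promoter summit, against 59.3% of all protein-coding genes. Among core genes it was 59 of 63 (93.7%, interval 84.5 to 98.2%), and among paralogs 9 of 24 (37.5%, interval 18.8 to 59.4%). These intervals do not overlap each other, while the core and paralog intervals of the IDR-thresholded list given above do. No test was made between the groups of genes. Replicate 1 gave 68 of the 88 genes (77.3%), against 58.5% of all genes, and replicate 3 gave 69 (78.4%), against 61% of all genes. In replicate 1, 59 core genes and 8 paralogs had one, and in replicate 3, 60 core genes and 8 paralogs. A promoter summit in the pooled list and in both replicates was present at 67 of the 88 genes (59 core genes, 7 paralogs and Sdhaf3), against 7413 of all genes (53.2%).

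**Figure D1:**
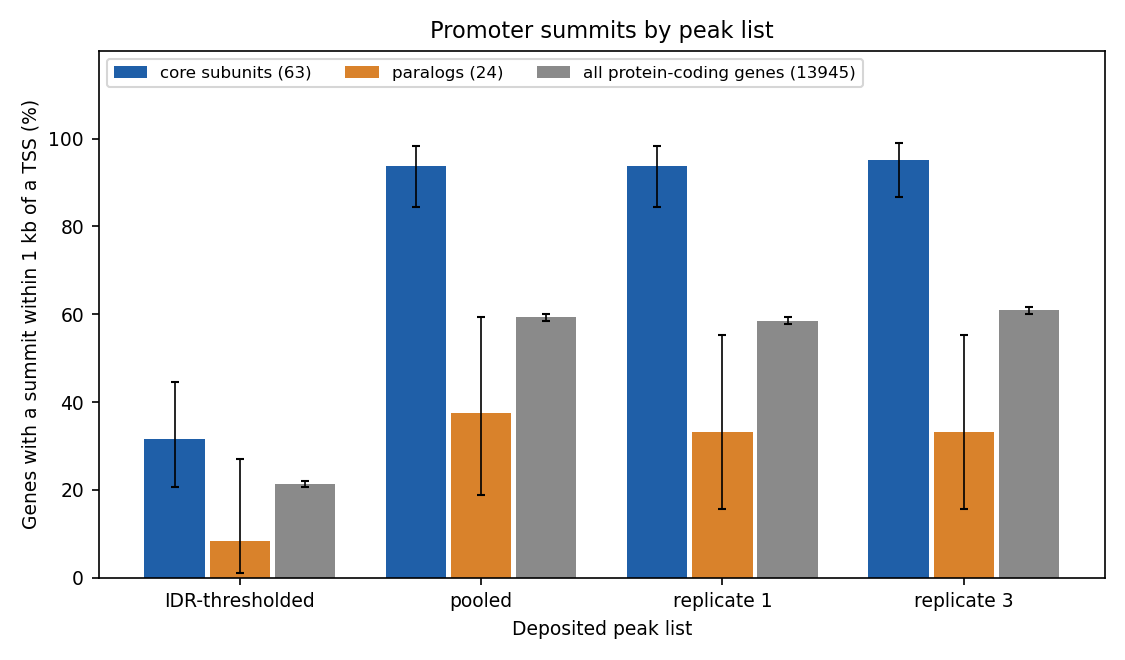
Share of genes (%, vertical axis) with a summit within 1 kb of a TSS in each of the 4 deposited peak lists (horizontal axis), for 63 core subunit genes, 24 paralogs and all 13945 protein-coding genes; error bars are exact binomial 95% intervals. Core genes reach 93.7% in the pooled list, paralogs 37.5% and all genes 59.3%.

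In median rank over genes with a summit, core genes lay near all genes, while most paralog summits were weak. Over the genes with a promoter summit in the pooled list, the strongest summit had a median rank of 4826 in core genes, 21015 in paralogs and 5348 in all genes. Of the 63 core genes, 20 (31.7%) lay in the IDR-thresholded list and 34 further ones (54.0%) came by rank 10000. Another 5 (7.94%) came by rank 20000 and 4 had no summit. Over all 13945 protein-coding genes, 21.3% lay in the IDR-thresholded list and a further 21.8% came by rank 10000. Another 10.8% came by rank 20000, 5.32% lay past it and 5681 genes had no summit. Of the 24 paralogs, 2 lay in the IDR-thresholded list, 2 came by rank 10000, 5 lay past rank 20000 and 15 had none. Restricted to pooled peaks with a q-value at or under 0.05, a limit added after seeing the data, the shares were 90.5% of core genes, 16.7% of paralogs and 48.5% of all genes.

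Other gene families of housekeeping machines are given for scale, without a test. They were taken by the start of the symbol (RpL or RpS, mRpL or mRpS, and Pros, Rpn or Rpt). No paralogs were set apart in them, unlike in the core chain genes. With paralogs kept, the 88 chain genes had 25% in the IDR-thresholded list and 78.4% in the pooled list. Of 73 mitochondrial ribosomal protein genes, 22 (30.1%) had a promoter summit in the IDR-thresholded list and 70 (95.9%) in the pooled list, close to the core chain genes. Of 92 cytoplasmic ribosomal protein genes, 67 (72.8%) had one in the IDR-thresholded list and 84 (91.3%) in the pooled list. Of 49 proteasome genes these counts were 15 (30.6%) and 34 (69.4%). The core chain genes were thus near the cytoplasmic ribosomal protein genes in how many had any summit, while fewer of them had one of the strongest.

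**Figure D2:**
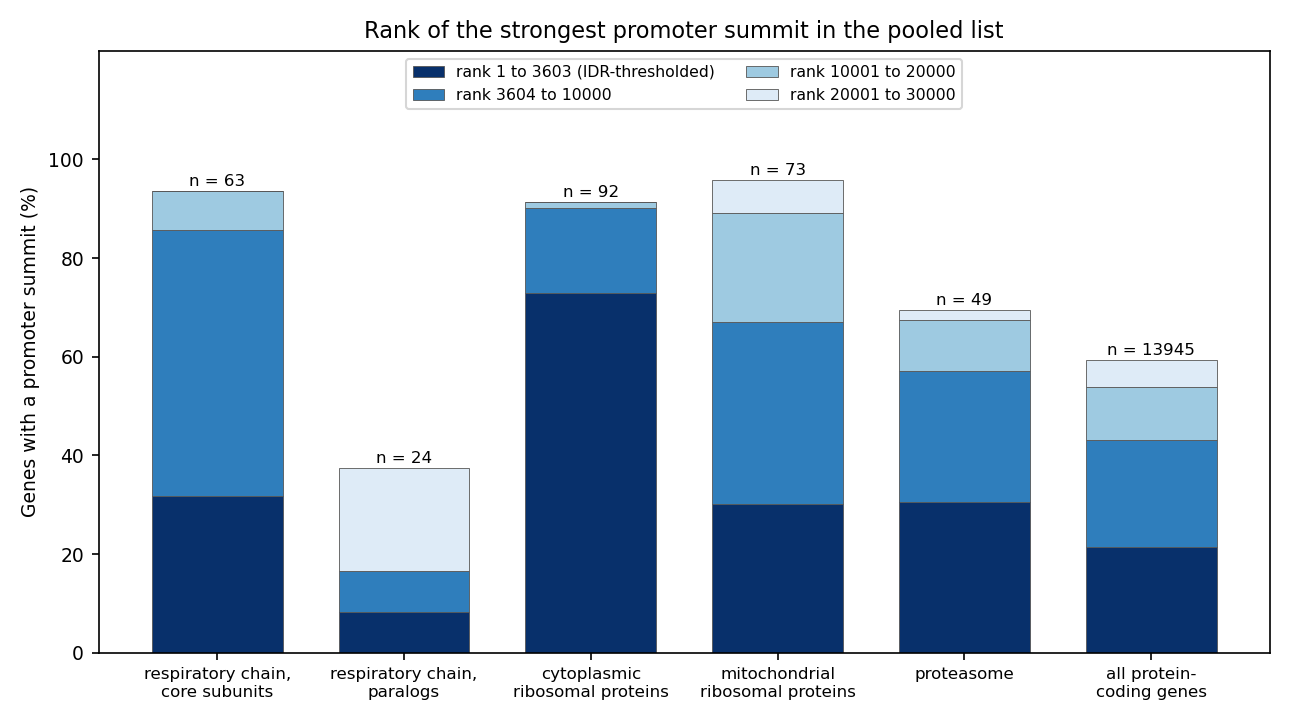
Stacked bars of the share of genes (%, vertical axis) by the rank of the strongest promoter summit in the pooled list, for each gene group (horizontal axis); the darkest part is the IDR-thresholded list. It covers 31.7% of core subunit genes and 72.8% of cytoplasmic ribosomal protein genes, while both bars end above 90%. Paralogs were set apart for the respiratory chain only.

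Complex I had the most genes. Of its 34 core genes, 8 (23.5%) had a promoter summit in the IDR-thresholded list, close to the 21.3% of all genes. In the pooled list 31 (91.2%) had one, against 59.3% of all genes, with a median pooled rank of 6600. ND-MWFE, the counterpart of mammalian NDUFA1, an accessory subunit of the membrane arm, led with rank 1151 and a pooled signal of 187.7. Its summit lay on 2R at 13158547, 119 bp upstream of the TSS, at rank 2520 (signal 85.3) in replicate 1 and rank 700 (signal 101) in replicate 3. The peak was stronger by rank in replicate 3 and present in both.

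ND-ACP, the mitochondrial acyl carrier protein, which is also a complex I subunit, had rank 1430 and a pooled signal of 174.8. The summit lay on 3L at 1329885, 64 bp upstream of the TSS, at rank 1267 (signal 109.6) in replicate 1 and rank 2837 (signal 62.1) in replicate 3. ND-ASHI, the counterpart of mammalian NDUFB8, had rank 1565 and a pooled signal of 168.9, with its summit on X at 6678272, 12 bp upstream of a TSS. That summit had rank 2720 (signal 82.6) in replicate 1 and rank 1084 (signal 87.9) in replicate 3. The replicates thus placed these genes in opposite orders.

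The remaining complex I genes of the IDR-thresholded list held lower ranks in it. ND-30, counterpart of NDUFS3 and part of the catalytic core, had rank 2065, with the summit 473 bp upstream of its TSS. ND-51, counterpart of NDUFV1, the subunit that binds NADH, had rank 2395. ND-B17.2 had rank 2834, ND-15 rank 3529 and ND-SGDH rank 3555, the last of these near the end of the list. Among the other catalytic subunits, pooled ranks were 5010 for ND-24, 6600 for ND-20, 9225 for ND-23 and 10417 for ND-75, all outside the IDR-thresholded list. ND-13B, at pooled rank 3800, was the strongest complex I gene outside it.

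The sequences under some of these summits are shown because they hold a pair of STAT half-sites. They are from the Release 6 assembly (dm6) as held by RefSeq, written 5′ to 3′ on the gene's own strand, with TTC and GAA 4 bases apart in capitals. The ND-ACP window spans chr3L:1329835-1329935 (plus strand) and the ND-SGDH window chr3L:12138632-12138732 (minus strand), each 50 bp to either side of the summit and neither overlapping an exon.
ND-ACP: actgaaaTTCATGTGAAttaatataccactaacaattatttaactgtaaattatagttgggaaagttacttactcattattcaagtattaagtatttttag
ND-SGDH: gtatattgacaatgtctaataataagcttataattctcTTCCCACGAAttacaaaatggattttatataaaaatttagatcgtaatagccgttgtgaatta

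The ND-SGDH site lay 3 bp from the summit and the ND-ACP site 34 bp from it. At ND-30 the closer spacing was found, TTC and GAA 3 bases apart, 10 bp from the summit at chr3L:3160051-3160079 (minus strand). That stretch lies in an exon of the neighbouring gene CG15812, so the site with 10 bases to either side is shown.
ND-30: tccaattgatTTCCAAGAAgttttcaatt

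All 4 core genes of complex II had a pooled promoter summit, against 59.3% of all genes. None was in the IDR-thresholded list, against 21.3% of all genes, and 0 of 4 allows a share of up to 60.2%. SdhC, a membrane anchor, had pooled rank 4315 and signal 110.9, with rank 3247 in replicate 1 and 7289 in replicate 3. SdhA, the flavoprotein that oxidises succinate, had pooled rank 5223. SdhD, the other anchor, had rank 8967 and SdhB, the iron-sulfur subunit, rank 9968. The assembly factor Sdhaf3 lay among them, at pooled rank 9313, with rank 15782 in replicate 1 and rank 8912 in replicate 3.

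Complex III had 1 core gene of 6 in the IDR-thresholded list, against 21.3% of all genes. It had 5 of 6 in the pooled list, against 59.3%, with a median pooled rank of 4505. UQCR-C2, a core protein of the complex, had rank 1730 with its summit 3 bp from a TSS. Ranks were close in the replicates, at 1994 in replicate 1 and 2409 in replicate 3. UQCR-6.4 had pooled rank 3769, just outside the IDR-thresholded list, with rank 1444 in replicate 1 and 7970 in replicate 3. UQCR-C1, the other core protein, had pooled rank 4505 and UQCR-Q rank 4899. UQCR-Q also had a stronger peak just past the limit, at rank 1000 (signal 196) and 1062 bp downstream of its TSS.

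Complex IV held the highest-ranked of the 88 genes, the paralog COX7AL2 and then COX7C. ATPsynF (rank 595) and ATPsynC (rank 891) of complex V ranked above its other core genes. Of the 8 core genes of complex IV, 5 (62.5%, exact 95% interval 24.5 to 91.5%) had a promoter summit in the IDR-thresholded list, against 21.3% of all genes. In the pooled list all 8 had one, against 59.3% of all genes, with a median pooled rank of 2072. The strongest summit at any of the 88 genes lay in the paralog COX7AL2, with rank 99 and a pooled signal of 419.9. It lay on 2L at 2197161, 751 bp downstream of the TSS, within the gene and outside its exons. No TSS of another protein-coding gene lay within 1 kb. Replicate 1 ranked it 93 (signal 250.9) and replicate 3 ranked it 138 (signal 171.5), so it was among the strongest peaks of both.

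COX7C, a small subunit of cytochrome c oxidase, had rank 497 and a pooled signal of 243.8. Its summit lay on 2R at 10048480, 127 bp downstream of the TSS. In replicate 3 the strongest summit of the gene lay at 10048490, at rank 921 (signal 92.2). In replicate 1 it was a different one, at 10049605, 124 bp downstream of another COX7C start, at rank 377 (signal 160.5). The paralog COX7CL begins just downstream, 867 bp from the nearer of the annotated COX7C starts. The COX7CL promoter summit of the IDR-thresholded list (rank 739, signal 215.5) lay at 10049621, 727 bp upstream of COX7CL, inside COX7C, and was nearest to a COX7C start, 140 bp away. In replicate 1 the strongest summit for both genes was the same one, at rank 377 (signal 160.5), while in replicate 3 that of COX7CL had rank 4038 (signal 53.2). This summit does not separate the 2 genes.

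COX7B had rank 1283 and a pooled signal of 181.0, with its summit on 3L at 17425309, 168 bp upstream of the TSS. It had rank 2450 (signal 86.3) in replicate 1 and rank 775 (signal 97.1) in replicate 3. COX5A, an accessory subunit on the matrix side, had rank 1325 and a pooled signal of 178.8, with its summit on 3R at 11819465, 106 bp downstream of the TSS. Its ranks were 2344 (signal 87.8) in replicate 1 and 668 (signal 102) in replicate 3. Both were stronger by rank in replicate 3. COX6B (rank 1653) and COX5B (rank 2491) completed the core genes of this complex in the IDR-thresholded list, and COX4, at pooled rank 3749 (signal 118.5), was the first of all 88 genes outside it.

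The COX7AL2 window is shown because it belongs to the strongest summit and holds TTC and GAA 4 bases apart (capitals), 26 bp from the summit. It spans chr2L:2197111-2197211 on the minus strand, the gene's own.
COX7AL2: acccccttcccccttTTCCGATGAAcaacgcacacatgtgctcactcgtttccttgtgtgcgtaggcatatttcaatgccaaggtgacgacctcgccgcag

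In complex V 6 of 11 core genes (54.5%, exact 95% interval 23.4 to 83.3%) had a promoter summit in the IDR-thresholded list, against 21.3% of all genes. In the pooled list all 11 had one, against 59.3% of all genes, with a median pooled rank of 3530. ATPsynF, a subunit of the membrane part, led with rank 595 and a pooled signal of 231.7. Its summit lay on 2R at 24599857, 36 bp upstream of the TSS, at rank 781 (signal 127.7) in replicate 1 and rank 766 (signal 97.8) in replicate 3. ATPsynC, which forms the rotating ring, had rank 891 and a pooled signal of 204.4, with its summit on 3R at 31219628, 2 bp from a TSS. Its ranks were 1115 (signal 114.3) in replicate 1 and 774 (signal 97.2) in replicate 3. Both genes were among the 3603 strongest peaks of each replicate.

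ATPsynbeta, the catalytic subunit, had rank 1414 and a pooled signal of 175.3, with its summit on chromosome 4 at 1031930, 66 bp downstream of a TSS. It had rank 872 (signal 123.5) in replicate 1 and rank 3402 (signal 57.4) in replicate 3. ATPsynB, of the peripheral stalk, had rank 1449 and a pooled signal of 174.0, with its summit on 3L at 9730140, 141 bp downstream of the TSS. Its ranks were 2113 (signal 91.4) in replicate 1 and 1504 (signal 79.3) in replicate 3. ATPsynO (rank 3398) and ATPsynD (rank 3530), both of the peripheral stalk as well, lay near the end of the IDR-thresholded list. ATPsynE, at pooled rank 4289, and ATPsynCF6, at pooled rank 4352, were the strongest genes of this complex outside it, and ATPsyndelta was the weakest core gene, at rank 13508.

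**Figure D3:**
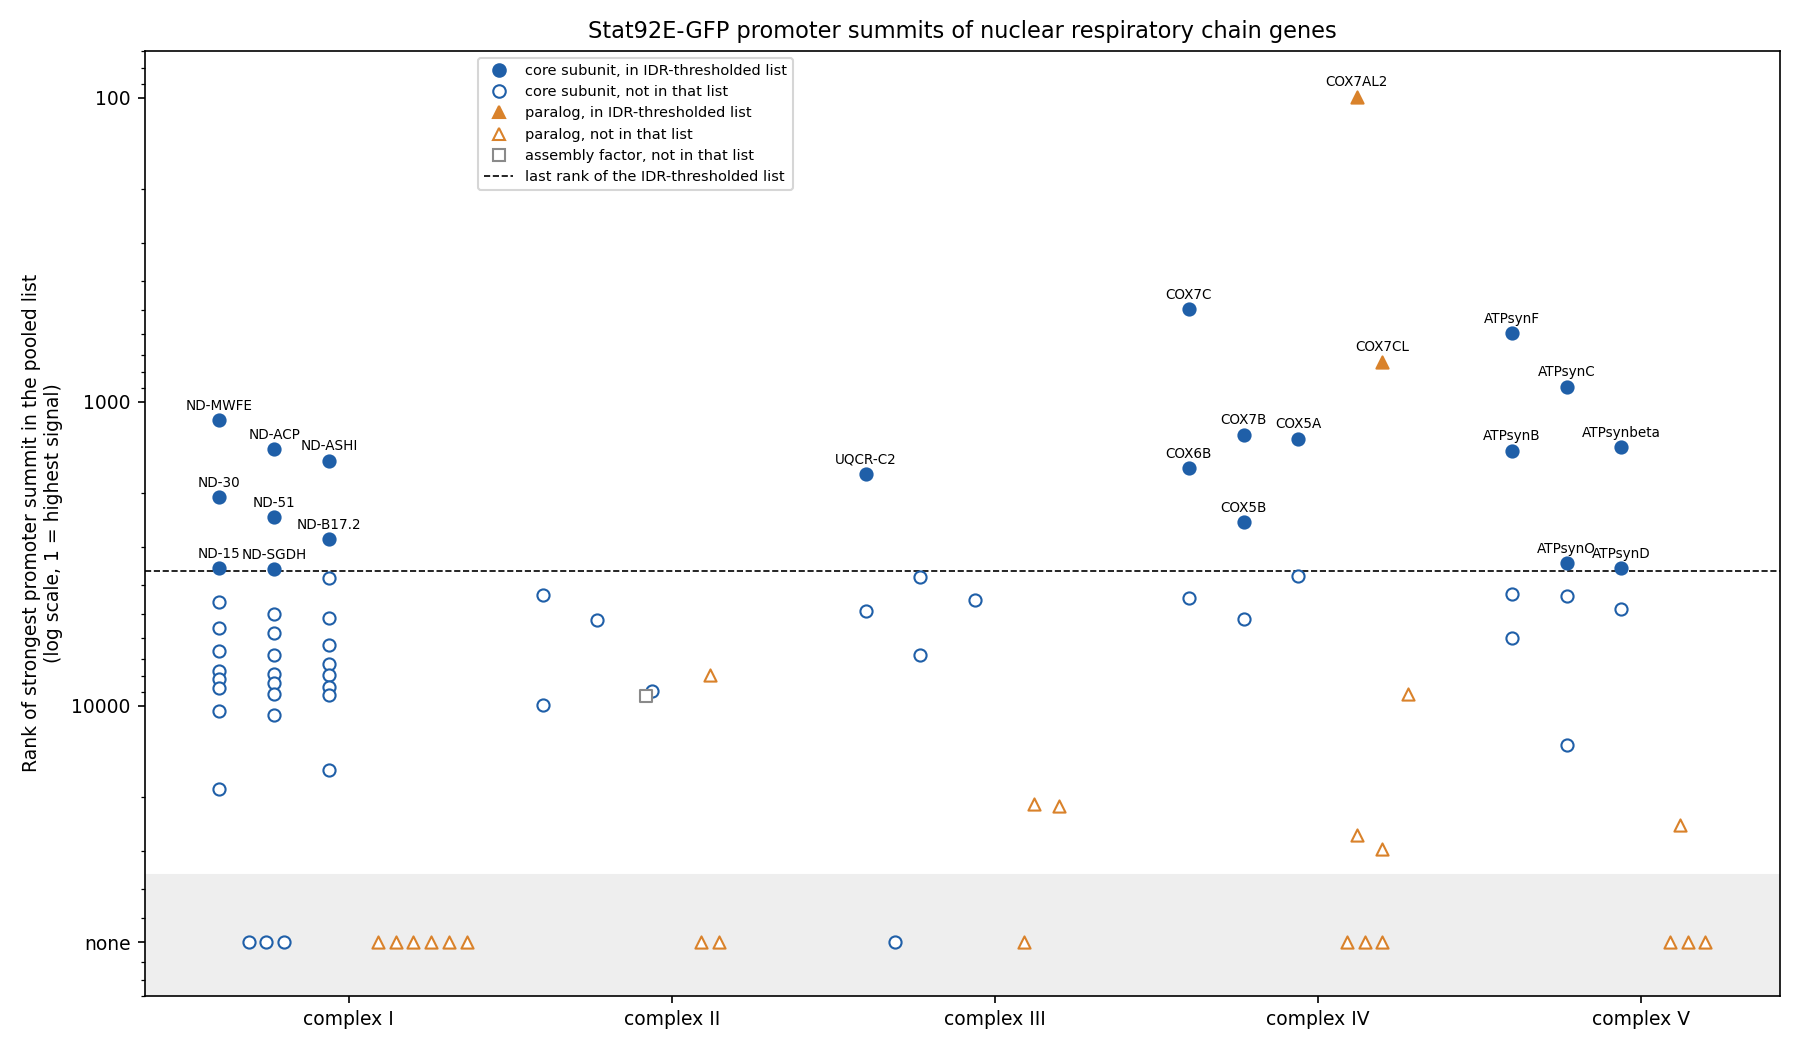
Rank of the strongest promoter summit of each of the 88 genes in the pooled list (vertical axis, log scale, rank 1 at the top) by complex (horizontal axis); circles are core subunits, triangles paralogs, the square Sdhaf3, filled symbols lie in the IDR-thresholded list, and symbols on the grey band had no promoter summit. Complexes IV and V hold every gene above rank 1000, with COX7AL2 at rank 99 on top.

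The paralogs had few summits, and most of those they had lay far from their own start. None of the 6 complex I paralogs (ND-20L, ND-24L, ND-49L, ND-51L1, ND-51L2 and ND-B14.5AL) had a promoter summit in any of the 4 lists. SdhAL, SdhCL, UQCR-14L, COX6AL2, COX6CL, ATPsynCF6L, ATPsynGL and ATPsynbetaL had none either, which makes 14 of 24. Over all protein-coding genes, 4713 (33.8%) had none in any list. Besides COX7AL2 and COX7CL, pooled summits were present at SdhBL (rank 7914), COX7AL (rank 9150), UQCR-11L (21015), UQCR-6.4L (21381), ATPsynepsilonL (24714), COX6AL (26557) and COX5BL (29543). The last 5 of these lie past rank 20000 of the 30000 pooled peaks.
UQCR-11L had no summit in either replicate list, ATPsynepsilonL had one in replicate 1 only (rank 14898), and COX4L had one in replicate 3 only (rank 18915).

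Only 4 core genes had no pooled promoter summit: ND-49, ND-AGGG, ND-MLRQ and UQCR-11. ND-49, a catalytic subunit encoded on chromosome 4, had a summit in replicate 3 alone, at rank 3900 and 421 bp upstream of its TSS. The other 3 had none in any list and all lie at the end of 3L next to the centromere, with starts at 23339326 (ND-MLRQ), 24976254 (ND-AGGG) and 25120709 (UQCR-11). Of the 29 protein-coding genes from the ND-MLRQ start to the end of the arm, 0 had a pooled promoter summit and 1 had one in any list. The last deposited summit on 3L in any list lay at 24028648, and 21 of those genes start beyond it, so at these 3 genes the lists say nothing that is particular to them. How the authors treated reads in repeated sequence is not given in the sources used here, and its part in this gap was not tested.

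Ranks also differed by chromosome. Of the 12 core genes on X, 2 had a promoter summit in the IDR-thresholded list and all 12 in the pooled list, with a median pooled rank of 7623. Over all genes on X these figures were 16.3%, 63.9% and 7175, so the weaker ranks of core genes on X stood beside weaker ranks of X genes in general. Complex I holds 9 of those 12 genes, and whether this bears on its median rank given above was not tested.

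The summits of core genes lay close to the start of transcription. In the pooled list the strongest summit lay a median of 83 bp from the nearest TSS of the gene in 59 core genes, 751 bp in 9 paralogs and 140 bp in 8195 other genes. It lay within 200 bp at 45 core genes (76.3%), 1 paralog (11.1%) and 61.3% of the other genes. In the IDR-thresholded list the medians were 82 bp in 20 core genes and 118 bp in 2954 other genes, and 17 core genes (85%) against 69.3% of other genes lay within 200 bp. Each replicate gave the same order: replicate 1 had medians of 69 bp in core genes and 154 bp in other genes, and replicate 3 had 101 bp in core genes and 156 bp in other genes.

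Core summits were split evenly around the start, with 31 upstream and 28 downstream of the TSS in the pooled list. In the other genes 5442 lay upstream and 2737 downstream. The bin from 100 to 200 bp downstream held 13.6% of core genes and 6.37% of other genes, while the bin from 200 to 100 bp upstream held 8.47% of core genes and 15.3% of other genes. These are descriptions of 59 summits, with no test. The summits of the 2 replicates lay a median of 103 bp apart at the 59 core genes, as far as a bin is wide. At some genes, such as ATPsynB and ATPsynbeta, the side of the summit differed between the lists.

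**Figure D4:**
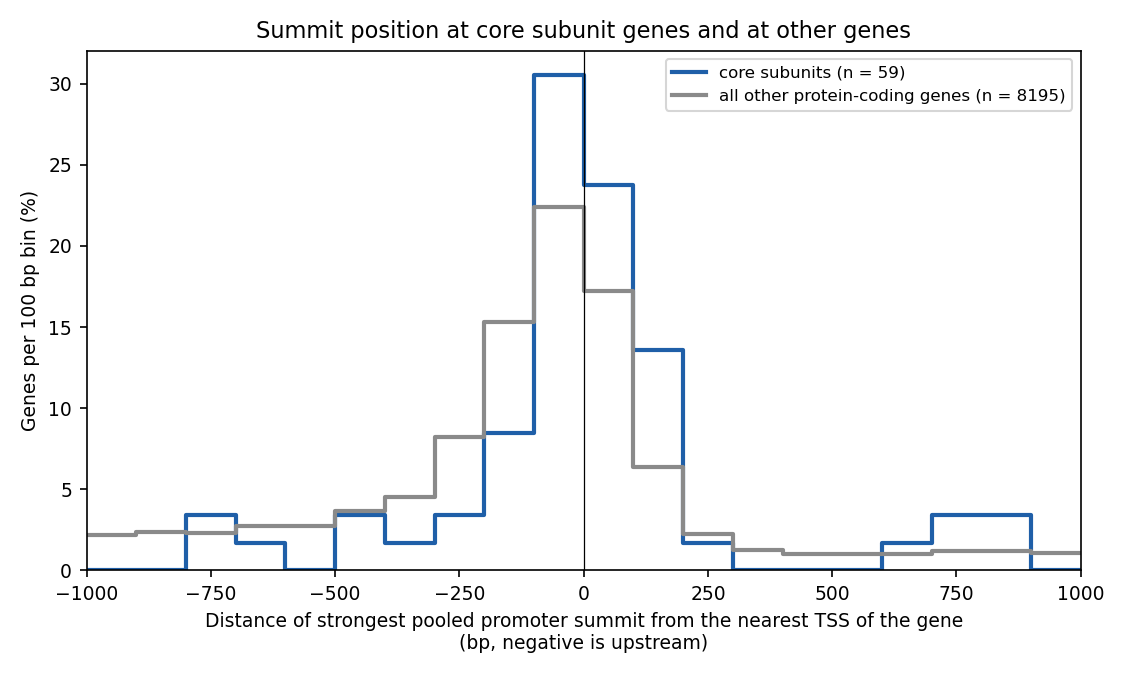
Distance of the strongest pooled promoter summit from the nearest TSS of its gene (horizontal axis, bp, negative is upstream) against the share of genes in each 100 bp bin (vertical axis, %), for 59 core subunit genes and 8195 other protein-coding genes. The 2 bins beside the TSS hold 30.5% and 23.7% of core genes, against 22.4% and 17.2% of other genes.

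At the 1 kb limit itself, the outermost summits of the IDR-thresholded list that counted were those of ND-15 (795 bp downstream) and ATPsynD (771 bp upstream). The first ones that did not count were those of UQCR-Q (1062 bp downstream) and ND-MNLL (1554 bp downstream). In the pooled list ND-75 had a summit at 997 bp upstream and ATPsynCF6 one at 1064 bp upstream, beside their nearer ones.

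Many of these promoters are shared, so a summit often had more than 1 candidate gene. Only starts of protein-coding genes were considered. Of the 22 genes with a promoter summit in the IDR-thresholded list, 16 (72.7%) had a TSS of another gene within 1 kb of the summit, against 60.8% of all genes with such a summit. For 13 (59.1%) that neighbour was transcribed away from them, against 55.0% of all such genes. The respiratory gene held the nearest TSS in 15 of 22 cases (68.2%), against 70.3% over all genes, so the chain genes stood close to the background in this. The start of ND-ASHI lay 164 bp from that of Fum1, which encodes fumarase. Other starts lay 95 bp (ATPsynD and mRpL55), 107 bp (ATPsynbeta and CG11076), 120 bp (ND-B17.2 and Arpc5), 126 bp (ATPsynF and CG3548) and 260 bp (COX7B and Sec3) apart.

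For 7 genes of the IDR-thresholded list another gene held the nearest start. The ND-30 summit lay 56 bp from CG15812, the ND-15 summit 19 bp from CG3436, the ATPsynD summit 41 bp from cdi and the COX7B summit 92 bp from Sec3. COX5A (nearest glo, 45 bp), ND-MWFE (nearest TppII, 102 bp) and COX7CL (nearest COX7C) were the others. ATPsynB, ATPsynC, ATPsynO, COX7AL2, ND-ACP and UQCR-C2 had no other protein-coding start within 1 kb. In the pooled list 50 of 69 genes held the nearest start (72.5%, against 73.0% of all genes), among them 44 of 59 core genes and 5 of 9 paralogs.

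A promoter summit was present at 68 genes in replicate 1, 69 in replicate 3 and 67 in both, while ranks agreed only in part. These lists reach 58.5% and 61% of all protein-coding genes. All 22 genes of the IDR-thresholded list had a promoter summit in both replicates. That list was made from both replicates, so this is no measure of their agreement. Among the 3603 strongest peaks of a replicate, 17 of the 22 were found in replicate 1, 20 in replicate 3 and 15 in both. Of the 67 genes with a summit in both replicates these counts were 22, 23 and 15. Of 7443 other such genes they were 2890, 2776 and 1960. Across the 67 genes with a summit in both replicates, ranks in replicate 1 and replicate 3 had a Spearman rho of 0.627, and across the 59 core genes 0.554, against 0.681 across 7443 other genes. These correlations are across genes, which share the same 2 libraries and the same control and in part the same peaks, and they carry no test.

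Taken as the ratio of the ranks on the log2 scale, the largest differences between replicates were at COX7CL (377 in replicate 1, 4038 in replicate 3), ND-B17.2 (1972 in replicate 1, 15710 in replicate 3), UQCR-6.4 (1444 in replicate 1, 7970 in replicate 3) and ATPsynbeta (872 in replicate 1, 3402 in replicate 3). These 4 were stronger by rank in replicate 1. By plain difference of ranks others came first, such as ND-B14.7 (28246 in replicate 1, 11955 in replicate 3), which was stronger in replicate 3. Over all 67 genes, 36 were stronger by rank in replicate 3 and 31 in replicate 1. The ND-B17.2 summit is thus in the IDR-thresholded list, while its rank in replicate 3 was 15710 of 30000. Summits of the 2 replicates lay a median of 93 bp apart at the 67 genes and 92 bp apart at the other genes.

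**Figure D5:**
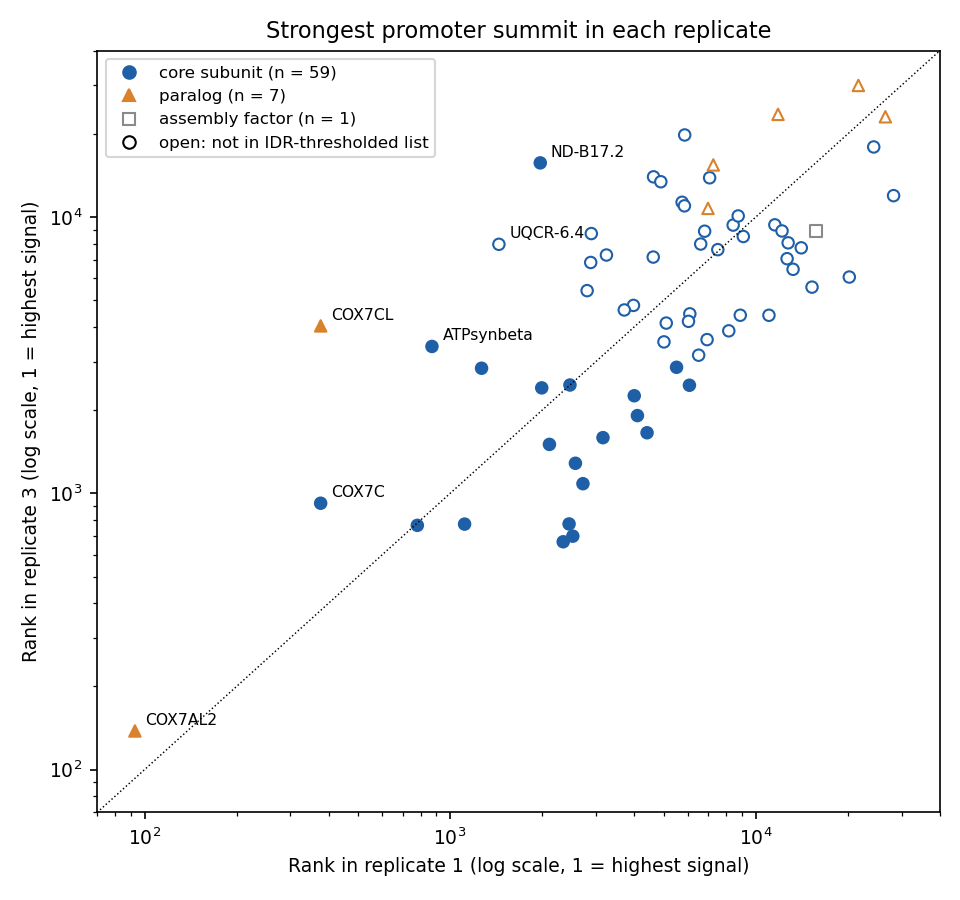
Rank of the strongest promoter summit in replicate 1 (horizontal axis) against replicate 3 (vertical axis), both on log scales with rank 1 the highest signal, for the 67 genes with a summit in both; filled symbols lie in the IDR-thresholded list and the dotted line marks equal ranks. COX7AL2 stands apart at ranks 93 and 138, and ND-B17.2 and COX7CL lie far above the line.

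STAT sites were found under few of these summits. Of 22 windows reaching 50 bp to either side of the summits in the IDR-thresholded list, 2 held TTCNNNGAA (9.09%, at COX7C and ND-30), against 5.27% of 2336 other promoter summits. TTC and GAA 4 bases apart were in 3 windows (13.6%, at COX7AL2, ND-ACP and ND-SGDH, printed above), against 4.41% of the others. Both strands were searched, and no window held both spacings. Either spacing was in 5 of 22 windows (22.7%), against 9.46%, and in the pooled list in 7 of 69 windows (10.1%), against 7.35%. The difference from other promoter summits thus rested on 5 windows and was smaller in the pooled list. The 22 windows had a median G and C content of 38.1%, against 40.6% in the 2336 others. Whether this bears on the shares was not tested.

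Motifs of general promoter factors were sparse under the summits as well. TATCGATA, the DNA replication-related element (DRE), the GAGA element GAGAGAG and the E-box CACGTG were in 0 of the 22 windows, against 4.28%, 3.21% and 1.37% of the other windows. The ewg/NRF1-like palindrome, with at most 2 mismatches, and the nuclear respiratory gene element (NRG), with at most 1 mismatch, were in 0 windows, against 2.05% of the others for each. Core promoter motif 1, a short element known from many broadly expressed fly genes, was in 1 window, at COX5B (4.55%, against 3.17%). At the summits of a single replicate it was in 2 windows (9.09%) without replicate 1 and in 3 of 21 (14.3%) without replicate 3. With 22 windows, 0 allows a share of up to 13.6%.

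Promoter windows, which are wider than the summit windows and so not comparable with them, were searched for the same motifs. From 250 bp before to 50 bp after the 5′ end of the gene, an exact match to motif 1 on either strand was in 14 of 63 core promoters (22.2%) and 0 of 24 paralog promoters, against 5.52% of all protein-coding genes. Of the 14, 7 belong to genes with a promoter summit in the IDR-thresholded list: ATPsynC, ATPsynD, COX5A, COX5B, COX7B, ND-ACP and ND-MWFE. Of all 63 core genes, 20 (31.7%) had such a summit, against 21.3% of all protein-coding genes. Whether the motif and these summits go together was not tested. In 10 of the 14 the motif ran in the direction of the gene, and in 12 its centre lay within 100 bp of the 5′ end. Direction and position were not counted in other genes. A match is a description of these letters and not a bound site. ND-B14, ND-MWFE and UQCR-6.4 are named only, and the other 11 matches are printed below.

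The matches are printed on the motif's strand with 10 bases to either side and the motif in capitals, to show the shared letters. The motif lay at chr3R:31219788-31219797 in ATPsynC, chr3R:19094894-19094903 in ATPsynD, chr2L:19958650-19958659 in COX4, chr3R:11819323-11819332 in COX5A and chr2L:6557811-6557820 in COX5B. It lay at chr3L:17425485-17425494 in COX7B, chr2L:5100271-5100280 in ND-13A, chrX:19492417-19492426 in ND-18, chr3L:1329981-1329990 in ND-ACP, chr2L:15751085-15751094 in ND-B17 and chr2L:3466079-3466088 in ND-PDSW. The motif was on the minus strand in ATPsynC, ATPsynD, COX5A, ND-B17 and ND-PDSW and on the plus strand in the others.
ATPsynC: actactgttaTGGTCACACTgcgcctattg
ATPsynD: accctcgggtCGGTCACACTatcagctgcc
COX4: attcgagatgTGGTCACACTtctctgcatg
COX5A: gatttaattgCGGTCACACTgcatcttcaa
COX5B: tactttaccgCGGTCACACTgatccatagc
COX7B: aacaacacaaCGGTCACACTgttcaacaca
ND-13A: taccgatcagCGGTCACACTggttatttaa
ND-18: accgctcgccTGGTCACACTggcactggcg
ND-ACP: attgcgcataCGGTCACACTgctaccttgc
ND-B17: tttaagagtgCGGTCACACTggcggcaaca
ND-PDSW: tggcacactgCGGTCACACTggcttcgctc

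In the same promoter windows the DRE was in 9 core promoters (14.3%) and 0 paralog promoters, against 9.36% of all genes. TTC and GAA 4 bases apart were in 10 core promoters (15.9%), against 9.92%, and TTCNNNGAA in 5 (7.94%), against 9.23%. GAGAGAG was in 0 core promoters, against 5.87%. CACGTG was in 2 (3.17%), against 4.20%, the ewg/NRF1-like palindrome in 2 (3.17%), against 5.57%, and the NRG element in 6 (9.52%), against 6.10%.

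The other genes of the pathway had promoter summits about as often as the core subunits. Of 29 genes listed, 28 matched the annotation. In the IDR-thresholded list 10 of the 28 had a promoter summit, against 21.3% of all genes, and in the pooled list 27 did, against 59.3%. Replicate 1 gave 27 of the 28, against 58.5% of all genes, and replicate 3 gave 26, against 61%. Chain subunits under other symbols gave 4 of 8 in the IDR-thresholded list (21.3% of all genes) and 8 of 8 in the pooled list (59.3% of all genes). These 4 were Cyt-c-d (rank 278) and Cyt-c-p (rank 728), the cytochrome c genes, RFeSP (rank 1282), the Rieske iron-sulfur protein of complex III, and levy (rank 1720), a complex IV subunit. The Cyt-c-p summit lay 988 bp downstream of its TSS, at the edge of the limit. Outside that list, sun had pooled rank 3950, ox rank 4483, blw, which encodes the alpha subunit of the ATP synthase, rank 4496, and Cyt-c1 rank 19651.

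Of 10 genes of the tricarboxylic acid cycle, which feeds the chain with electrons, 5 had a promoter summit in the IDR-thresholded list, against 21.3% of all genes, and all 10 in the pooled list, against 59.3%. The 5 were Idh3g (rank 280), Scsalpha1 (rank 1510), Fum1 (rank 1565, the summit shared with ND-ASHI), ScsbetaA (rank 1742) and Idh3b (rank 2747). Of 7 genes of mitochondrial transcription and its nuclear regulators, only TFAM, which packages mitochondrial DNA, was in the IDR-thresholded list (rank 1830), against 21.3% of all genes. All 7 were in the pooled list, against 59.3% of all genes. Among them ewg, the fly relative of NRF1, had pooled rank 4246 and srl, the fly relative of PGC-1, rank 4604. Of 3 assembly factors, Surf1 had pooled rank 5022 and Cchl rank 5546, and Scox had no promoter summit in any list.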

How the data were processed

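Peaks of 2 Stat92E-GFP ChIP-seq replicates were used as deposited, on build dm6 per the labels. Per the deposited file lists, the authors called peaks per replicate against a shared control, called a pooled list from both replicates, and thresholded it by IDR. Which aligner, peak caller, settings and IDR threshold they used is not stated in the labels or file lists. The signal score is the authors' deposited value with no stated unit, used to rank peaks within a list. The −log10 q-value was also used as deposited, and summits are peak start plus the deposited offset. Gene models came from Ensembl release 115 and sequence from RefSeq Release 6; no peak ended beyond its chromosome.

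A summit within 1 kb of a TSS of any protein-coding transcript counted for that gene, and the strongest was kept. Motifs were searched on both strands in windows of 50 bp to either side and in promoters of 250 bp before to 50 bp after the 5′ end. Shares carry exact binomial (Clopper-Pearson) 95% intervals. Limits for a count of 0 in groups of genes are the upper bounds of those intervals, and for motif windows 3 counts of the total. Scripts used Python 3.11.15, NumPy 2.4.6, SciPy 1.17.1 and Matplotlib 3.10.9 and were tested on simulated summits and motifs. There was 1 group, so no test between groups was made.

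The genes described and the gene and motif lists were chosen with earlier results of these data known. Named are the 12 strongest genes of the IDR-thresholded list in full, the others of that list by rank, the 6 strongest outside it, the 4 with the largest difference of log2 rank between replicates and all genes with no summit; others named with values were chosen after their values were seen.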

Additional observations from a re-analysis of the deposited data

Results flagged for a closer look

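Peaks on the mitochondrial chromosome, which encodes the remaining chain subunits, entered none of the gene counts above. The list sizes, the count of peaks by q-value and the ranks above include them. The replicate 1 list held 17 of them, the highest with a signal of 23640 and rank 1, and the replicate 3 list held 0. The pooled and IDR-thresholded lists held 2 each, the highest with a signal of 23412 and rank 1. These peaks were present in 1 of the 2 replicates, and no control sample was analysed here. Their source was not tested.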

How the results depend on the processing

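With 500 bp, 2 kb, gene 5′ ends, nearest genes or peak intervals in place of summits, 15 to 26 of the 88 genes had a promoter summit in the IDR-thresholded list, and 15.4 to 25.2% of all genes. With its 1801 strongest peaks by signal it was 14 of the 88 genes and 12 core genes, against 10.8% of all genes. Leaving out a replicate, by taking only the 3603 strongest peaks of the other one, gave 22 to 23 genes, 20 to 22 of them core. In the pooled list the paralog count was 3 of 24 with 500 bp (54.1% of all genes), 5 with nearest genes only (50.9%), 4 with the 15000 strongest peaks (49.7%) and 4 with q-values at or under 0.05 (48.5%). The core count was 54 to 57 of 63 under the same settings, against 48.5 to 54.1% of all genes. The cause was not tested beyond the smaller windows and fewer peaks of these settings. The counts given above for leaving out a replicate were 22 genes from replicate 1 (21.0% of all genes) and 23 from replicate 3 (20.4%). At the summits of 1 replicate alone, taken from its full list, the median summit distance of the 22 genes ranged from 55.5 to 101 bp. STAT sites were in 3 windows with 25 bp to either side, 7 with 100 bp, and 3 to 5 at the summits of 1 replicate alone. Core promoter motif 1 with 1 mismatch, added after seeing the data, was in 5 of 22 windows (22.7%), against 7.83% of other windows. In the pooled list this was 10 of 69 windows (14.5%), against 4.58%. No paired analysis was possible because there was 1 group. The lists give no read depth, and fixed list lengths limit what the number of weak peaks can say.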

Other observations

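Some promoters joined a respiratory chain gene to another mitochondrial gene, a set chosen after the values were seen. ND-ASHI and Fum1 shared the summit at rank 1565 of the IDR-thresholded list. ND-42, a complex I subunit, and Cchl, which attaches heme to cytochrome c, start 229 bp apart and shared the pooled summit at rank 5546, which lay 64 bp from the Cchl start and 293 bp from that of ND-42. ND-B16.6 and kdn, which encodes citrate synthase, start 228 bp apart; the strongest pooled summit had rank 10726 for ND-B16.6 and rank 9701 for kdn. ATPsynD and mRpL55, a mitochondrial ribosomal protein gene, start 95 bp apart, but the summit counted for ATPsynD lay nearest to cdi.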
